A study of Mus musculus with 9 samples.

Results

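Gene expression in the central cornea of SJL/J (SJL) mice, a strain whose cornea the labels call thick, was set against that of C57Bl/6J (B6) mice, for which the labels give no thickness. The 6 samples compared were the 3 arrays titled as SJL cornea and the 3 titled as B6 cornea, out of 9 in the series. The other 3 came from C57BLKS/J (KS) mice, labelled as having a thin cornea, and were used to sort the differences into those that KS shared with SJL and those private to SJL. All mice were adult males of 4 months with no treatment named, and each Affymetrix array held RNA from 1 mouse, with a 2-mm central punch from each eye pooled. Thickness and strain cannot be told apart in this design, since the replicate mice stand for the strain alone.

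The cornea is a clear tissue with a stratified epithelium in front, a thick collagenous stroma kept by keratocytes, and a single-layered endothelium behind. Most of its thickness is stroma, where fibrils of collagens I and V are spaced by small leucine-rich proteoglycans and the water content is held down by ion transport in the endothelium. B6 and KS are related strains, while SJL descends from Swiss stock. Values are linear probe set intensities, and differences are on the log2(intensity + 10) scale, where the added constant shrinks the change of dim genes. A gene was represented by its brightest probe set with a single symbol and was called where the adjusted p of limma was under 0.05.

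Defining markers of the 3 corneal layers were abundant in SJL and B6. Of the marker lists, however, 2 of 23 epithelial (8.7%), 6 of 21 keratocyte (28.6%) and 3 of 13 endothelial genes (23.1%) were called, as described further on. The share over all genes tested was 16.0%. Krt12, the keratin of differentiated corneal epithelium, was at 27731, 28376 and 29278 on the B6 arrays and 27258, 26007 and 26547 on the SJL arrays, a difference of -0.10 (95% interval -0.26 to 0.07). Kera, which encodes the stromal keratan sulfate proteoglycan keratocan, differed by -0.10 (-0.28 to 0.08) and Col8a2, a collagen of the membrane under the endothelium, by -0.03 (-0.23 to 0.18). Intensities ran from 3.39 to 37501, and 54.6% of them were under 16, so a level there is only an upper bound on a transcript. All 11 markers of blood and vessels, 14 of 16 of muscle and 19 of 21 of retina lay under 16 on every B6 and SJL array. KS replicate 3 stood apart by its retina markers, of which 6 were under 16. B6 replicate 3 and SJL replicate 2 had the highest 3' to 5' log2 differences of the Gapdh control probe sets in their strains, 1.55 and 1.17, against 0.73 to 0.92 on the other 4 arrays of SJL and B6. In bulk tissue, fewer cells of a type and less RNA per cell cannot be told apart.

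In SJL against B6, limma called 1754 of 10956 genes (16.0%), 918 higher in SJL (8.38%) and 836 lower (7.63%), while 3284 had an unadjusted p under 0.05. The larger differences were more often losses of signal, with 282 genes at least 2-fold higher and 398 at least 2-fold lower, and with 77 and 135 at 4-fold. The part of strain sequence under the probes in these losses was not tested. The median difference of all genes was 0.02. Higher genes numbered 606 without SJL replicate 3, and a test against a fold of 1.2 called 862 genes. The 3 SJL arrays did not overlap the 3 B6 arrays for 3587 genes (32.7%), and this held for 1749 of the 1754 called. Among further tested probe sets of the same genes, 1356 of 8437 were called (16.1%).

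KS shared 352 of the differences, called against B6 in the same direction in both strains, and 838 were private to SJL, called against B6 and against KS in the same direction with KS not called against B6. As a background, 6.25% of genes were called between KS and B6 and 14.8% between SJL and KS, the shared genes were 3.21% of all genes tested and the private ones 7.65%. SJL and KS were both compared with the same 3 B6 arrays, so a deviation of these arrays enters both differences. The shared genes were 20.1% of the SJL calls and 51.4% of the 685 KS calls. The private genes were 47.8% of the SJL calls. A further 48 genes were called on opposite sides of B6, and in the other 516 KS was called apart from neither B6 nor SJL. Among the 838 private genes, KS against B6 had an unadjusted p under 0.05 in 66 on the side of SJL and in 72 on the other side, so part of that group lies near the threshold. Over the fits that left out 1 array the shared genes numbered 224 to 359, with 224 without KS replicate 2 and 230 without KS replicate 3, and they numbered 228 under a stricter filter on dim probe sets.

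**Figure D1:**
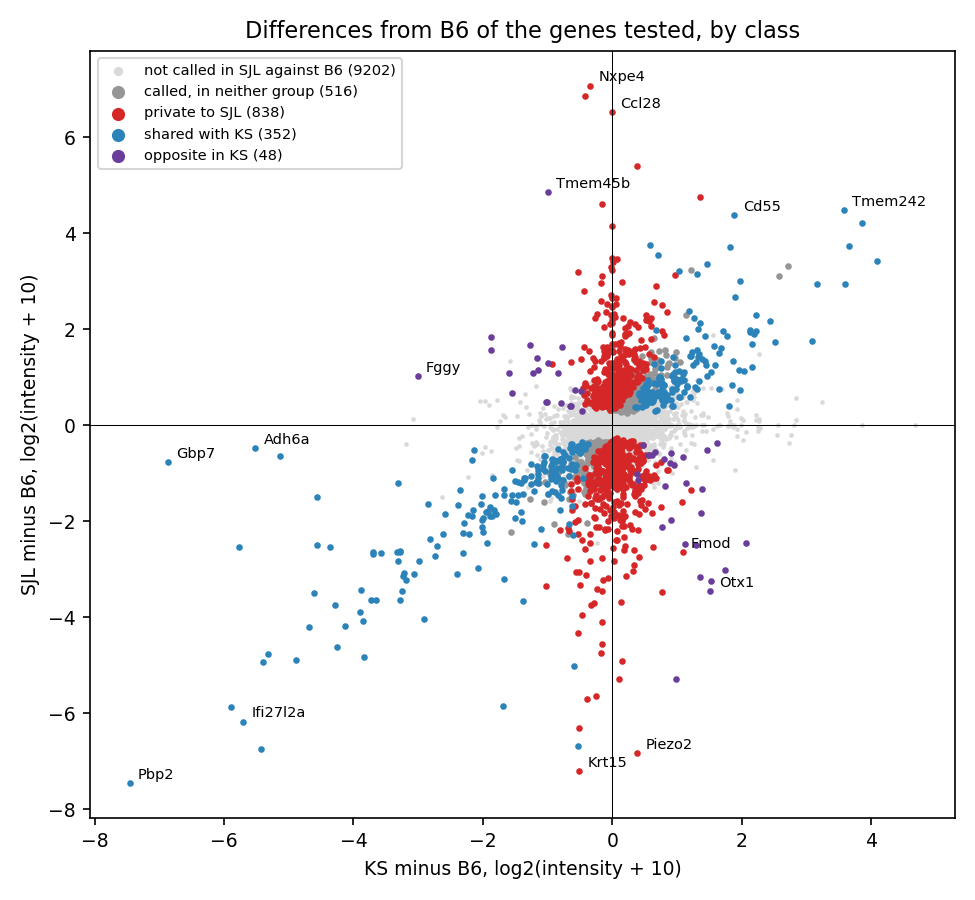
Each point is 1 of the 10956 genes tested, with its KS minus B6 difference on the horizontal axis and its SJL minus B6 difference on the vertical axis, both in log2(intensity + 10) and both against the same 3 B6 arrays. Colours mark the 352 genes shared with KS, the 838 private to SJL, the 48 on opposite sides of B6, the 516 called in none of these groups and the 9202 not called.

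The rule for shared genes fixed the direction in KS and, through the call, a least size. Both differences also used the same B6 arrays, so similar medians in SJL and KS are partly set by the rule. The 188 shared genes that were lower had a median of -1.37 in SJL and -1.36 in KS, and the 164 that were higher had medians of 0.89 and 0.95. SJL and KS themselves were called apart in 77 of the 352, with SJL further from B6 in 39 and KS further in 38. The 275 that were not called apart are not shown to be equal. Of the shared genes with a further tested probe set, 83 of 129 had one called in the same direction and 7 had one called in the other. For private genes these counts were 165 and 36 of 338, made up of 76 and 16 of 144 for the higher ones and 89 and 20 of 194 for the lower ones.

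Interferon-stimulated genes were the largest group of shared differences in the lists examined. These genes encode antiviral effectors and sensors, and their transcription is driven by interferons through a response element in their promoters. Of 40 tested members, 32 were lower in SJL than in B6 and 0 were higher, against 7.63% and 8.38% of all genes, and the list's median was -1.82. KS was lower than B6 in 35, and 31 of the 32 were shared, which is 16.5% of the 188 shared lower genes. The remaining one, the ubiquitin ligase gene Dtx3l, was lower in SJL (-0.40) and was not called in KS (-0.34, adjusted p = 0.114). The list was not complete, as Oas1b and Ifit1bl2, relatives of its members, were left out of it and were also shared and lower. The 3 B6 arrays had a higher list mean than any SJL or KS array, at 10.41, 9.85 and 10.15 on the log2 scale, against 8.12 to 8.44 in SJL and 7.68 to 7.87 in KS. The lower count was 30 to 34 when 1 array was left out, and the calls of Dtx3l and Gbp7 were the ones that ended, Dtx3l without B6 replicate 1 or 3 or any KS replicate or SJL replicate 2 or 3 (adjusted p = 0.0546 to 0.104) and Gbp7 without any B6 replicate or KS replicate 2 or SJL replicate 2 or 3 (adjusted p = 0.052 to 0.0996).

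Promoters of lower interferon-stimulated genes are shown because many hold the letters of that response element. Sequences of 300 bases, from 250 before to 50 after the transcription start, came from RefSeq annotation on GRCm38.p6 and were matched by symbol. The motif searched was GAAANNGAA on both strands, which reads TTCNNTTTC on the other strand, and matches may overlap each other. A gene with several promoters in the table counts if 1 of them holds it. It was present in 16 of the 22 lower members with a promoter in the table, 72.7%, and in 8.56% of all 32851 promoters of that length. Of the 6 list members with a promoter that were tested and not called, 3 held the motif. With so few such genes, the motif cannot be tied to being lower in SJL rather than to membership of the list. By gene it was present in 8.26% of the 8912 tested genes with a promoter, and in 22.6% of the 124 shared lower genes outside the list. The share was 8.63% for shared higher, 9.14% for private lower and 9.62% for private higher genes. These letters were chosen after a version 1 base longer, with another A at the 3′ end, had been counted. That version was present in 16 of the same 22 genes, in 3.44% of all promoters and in 12.1% of the shared lower genes outside the list, and in 3.6%, 4.29% and 5.45% of the shared higher, private lower and private higher genes. A match is a description of these letters, not evidence of binding. The promoters of 4 genes with large differences follow, with the motif in capitals.
Rsad2: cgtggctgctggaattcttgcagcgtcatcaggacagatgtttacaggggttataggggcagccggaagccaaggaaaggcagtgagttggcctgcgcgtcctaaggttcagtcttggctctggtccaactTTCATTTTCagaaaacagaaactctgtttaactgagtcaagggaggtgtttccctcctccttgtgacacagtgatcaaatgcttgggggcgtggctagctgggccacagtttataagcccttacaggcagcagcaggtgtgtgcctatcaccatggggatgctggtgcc
Bst2: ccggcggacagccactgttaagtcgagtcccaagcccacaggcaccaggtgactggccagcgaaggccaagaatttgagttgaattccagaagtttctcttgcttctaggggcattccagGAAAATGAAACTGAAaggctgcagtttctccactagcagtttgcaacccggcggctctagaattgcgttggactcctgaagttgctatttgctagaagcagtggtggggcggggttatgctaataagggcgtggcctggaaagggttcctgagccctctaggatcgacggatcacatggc
Oas1a: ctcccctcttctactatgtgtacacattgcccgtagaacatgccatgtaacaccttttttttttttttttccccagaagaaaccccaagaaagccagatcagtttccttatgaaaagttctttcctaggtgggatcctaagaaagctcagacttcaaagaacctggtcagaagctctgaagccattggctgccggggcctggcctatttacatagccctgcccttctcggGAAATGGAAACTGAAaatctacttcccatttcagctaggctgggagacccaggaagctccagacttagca
Ifit1: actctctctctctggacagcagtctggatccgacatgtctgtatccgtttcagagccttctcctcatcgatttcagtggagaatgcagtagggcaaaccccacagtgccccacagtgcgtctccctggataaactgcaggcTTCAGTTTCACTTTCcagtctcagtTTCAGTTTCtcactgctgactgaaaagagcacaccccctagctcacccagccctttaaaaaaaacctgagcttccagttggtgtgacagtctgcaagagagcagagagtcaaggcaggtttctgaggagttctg
The Rsad2 promoter (chr12:26456403-26456702, minus strand) holds 1 match, starting 119 bases before the transcription start. That of Bst2 (chr8:71537423-71537722, minus strand) holds 2 overlapping matches from 130 bases before it, and that of Oas1a (chr5:120907476-120907775, minus strand) 2 overlapping matches from 20 bases before it. The Ifit1 promoter (chr19:34640639-34640938, plus strand) holds 2 overlapping matches from 109 bases before the start and another from 84 bases before it.

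Several effector genes of this list were at high levels in B6 and far lower in SJL. Rsad2, which encodes the antiviral enzyme viperin, was at 1312, 207 and 853 in B6, 4.66, 5.64 and 27.04 in SJL and 4.96, 4.93 and 4.89 in KS. All SJL and KS arrays lay below the lowest B6 array, and the B6 arrays were themselves spread widely (SJL minus B6 -4.94 ± 0.62, SE, adjusted p = 0.000969). Ifi27l2a, a strongly interferon-induced gene, was at 9976, 7691 and 7301 in B6 and 105, 104 and 103 in SJL (-6.18 ± 0.13), with KS at 132, 158 and 157. Bst2, which encodes tetherin, a protein that holds budding viruses at the cell surface, was at 776, 349 and 468 in B6 and 31.1, 39.6 and 43.1 in SJL. Oas1a, whose product makes the 2-5A messenger that activates RNase L, was at 2992, 1965 and 2724 against 261, 257 and 353, and Oas2 at 1126, 869.9 and 1292 against 17.2, 22.5 and 63.4. The B6 and SJL arrays were apart in each of these genes, as in all 352 shared genes.

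Ifit1, whose product binds viral RNA ends, kept a measurable signal in SJL, at 677, 1274 and 1373 against 7251, 5987 and 6514 in B6 and 710.3, 639.9 and 643 in KS. The regulators of the response were lower too. Usp18, the protease that restrains interferon signalling, was at 5256, 3847 and 3996 in B6 and 245, 175 and 345 in SJL (-4.08). Irf7, Irf9 and Stat2, transcription factors of the pathway, differed by -1.79, -2.04 and -1.76, and the RNA sensor genes Ifih1, Ddx58 and Dhx58 by -0.94, -1.01 and -2.69. Irf1, another interferon-induced transcription factor, was at 3844, 3375 and 4749.8 in B6 and 4201, 4206 and 4484 in SJL and was not called (0.12, interval -0.17 to 0.41).

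SJL and KS were not alike across the whole list. Of the 31 shared members, 6 were higher in SJL than in KS and 2 were lower. Gbp7, an interferon-induced GTPase gene, was at 2656, 2038 and 2061 in B6, 1653, 999 and 1366 in SJL and 11.3, 10.1 and 6.76 in KS, so that SJL lay between the other strains. Gbp2, of the same family, was at 1454, 1009.6 and 1299, 896, 893 and 1052 and 141, 123 and 121, and its SJL minus B6 difference was not called (-0.39, adjusted p = 0.111). Xaf1 showed the same order, at 5493, 4649 and 4458, 1468, 1542 and 2197 and 214, 284 and 123, though a further probe set of it differed by only 0.01 between SJL and B6. Ifi204, a DNA sensor of the p200 family, went the other way, at 1461, 881 and 1332 in B6, 542, 299 and 294 in KS and 7.43, 17.5 and 9.37 in SJL.

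**Figure D2:**
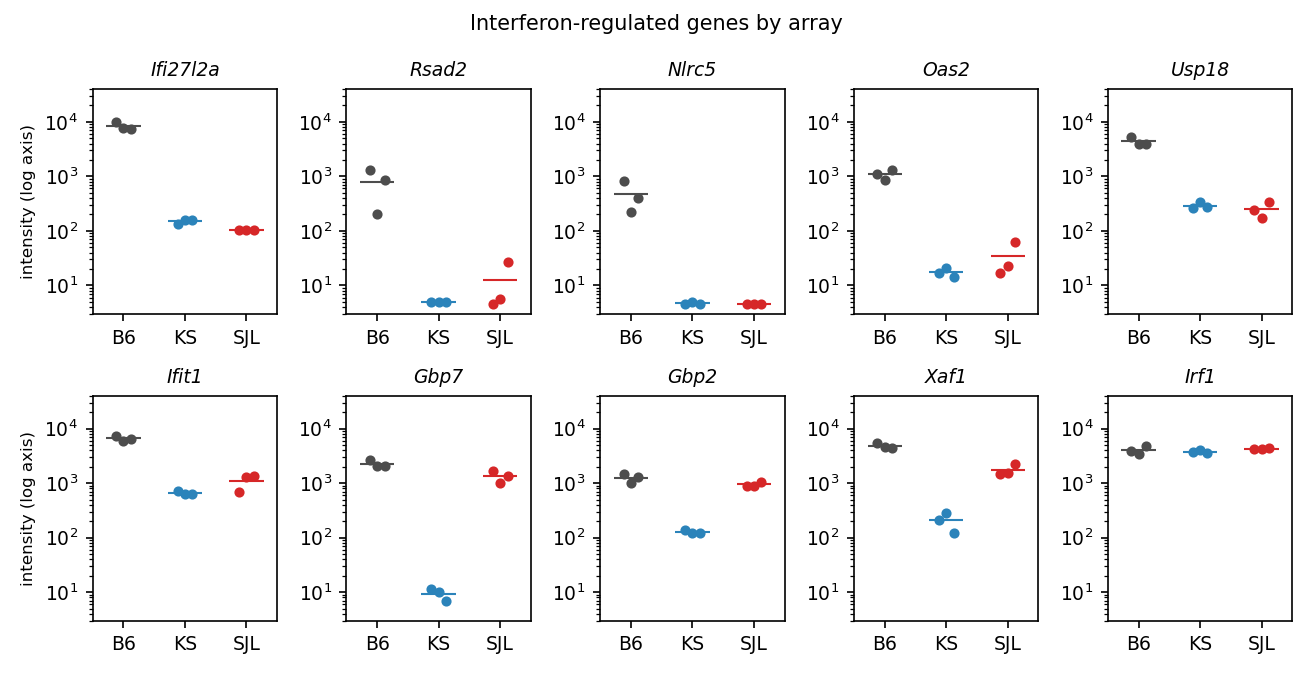
Intensity on a log axis by array for 10 interferon-regulated genes, with 3 arrays per strain as points and their mean as a bar. In Ifi27l2a, Rsad2, Nlrc5, Oas2, Usp18 and Ifit1 the SJL and KS arrays both lie below the B6 arrays, in Gbp7, Gbp2 and Xaf1 the SJL mean lies between those of B6 and KS, and Irf1 is close to equal.

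Antigen presentation genes followed, with 8 of 21 lower in SJL and 1 higher (42.9% called, against 16.0% of all genes). Of these 9, 8 were shared with KS. Nlrc5, the transactivator of class I histocompatibility genes, was at 827, 225 and 399.9 in B6 and at or under 4.86 on all 6 SJL and KS arrays. Its targets differed less: B2m, the class I light chain, was at 15078, 14153 and 13714 in B6 and 9046, 8451 and 8469.8 in SJL (-0.72), and H2-K1 differed by -0.50. The class I transporter gene Tap1 was lower by -0.84, a call that ended without B6 replicate 1 (adjusted p = 0.0594). H2-Ab1, a class II chain, was at 100.2, 70.4 and 94.1 in B6, 46.6, 45.4 and 46.6 in KS and 27.1, 25.5 and 20.4 in SJL, with each strain below the one before. Cd74, the class II invariant chain, was the private member, at 891, 869 and 855 in B6, 558, 866 and 659 in KS and 450.1, 404 and 399 in SJL. H2-DMa, which loads peptides on class II molecules, was the higher one, at 18.02, 20.4 and 23.02 in B6 and 48.7, 60.97 and 39.04 in SJL. H2-D1 was lower by its brightest probe set (-0.93), while 1 of its 6 further probe sets differed by 2.35 and the mean over all of them was 0.06. The part of strain sequence under the probes in such disagreements was not tested.

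Leukocyte markers did not move as a block. Of 33 on the array 15 were tested, with 3 higher and 2 lower in SJL (33.3% called, against 16.0% of all genes). The log2 list mean was 5.00 to 5.16 in B6, 5.10 to 5.20 in SJL and 5.11 to 5.36 in KS. The pan-leukocyte gene Ptprc lay at 4.71, 4.74 and 5.37 in B6 and 4.55, 4.54 and 4.56 in SJL, and Adgre1 of macrophages at 4.70, 4.69 and 5.17 and 4.64, 4.61 and 4.64, all near the lower end of the scale. Itgam, an integrin of myeloid cells, was higher, at 73.9, 43.4 and 68.05 in SJL against 22.1, 13.5 and 20.2 in B6 (1.31 ± 0.19, adjusted p = 0.00213). S100a9, a calgranulin gene of neutrophils and stressed epithelium, was at 473, 229.9 and 317 in SJL, 36.4, 6.56 and 40.3 in B6 and 183, 564 and 88.3 in KS, and the difference from B6 was called in SJL (3.31) but not in KS (2.71, adjusted p = 0.0515). C1qb, a complement gene of macrophages, was lower (-1.01), a call that ended without any B6 replicate or KS replicate 1 or SJL replicate 1 or 3 (adjusted p = 0.0582 to 0.11). Of 8 complement genes 1 was higher and 2 were lower (37.5% called, against 16.0% of all genes). The higher one, Cd55, which encodes a brake on complement at the cell surface, was shared, at 53.7, 48.5 and 24.4 in B6, 213, 158 and 165 in KS and 929, 1132 and 1052 in SJL, with both further probe sets also higher. The parts that cell number and expression per cell play in these differences were not tested.

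Outside the interferon list the shared genes included signals that were present in B6 and near the lower end of the scale in both other strains. Pbp2, a member of the phosphatidylethanolamine-binding protein family, was at 3443, 2841 and 1837 in B6, 4.97, 4.98 and 4.94 in KS and 4.97, 4.96 and 5.01 in SJL. Klra8, a natural killer cell receptor gene, was at 942, 785 and 992 in B6, 5.66, 5.39 and 5.19 in KS and 5.63, 5.56 and 5.70 in SJL. Mndal, of the p200 family, was at 2185, 1327 and 1541 in B6, 44.9, 24.1 and 20.1 in KS and 5.29, 5.25 and 5.63 in SJL. In these 3 genes no KS or SJL array overlapped a B6 array. The SJL and B6 arrays did not overlap in any of the 352 shared genes, so that separation adds no support. Trim12a, of a family of antiviral ubiquitin ligases, was shared by the rule but far from equal, at 1542, 1305 and 1502 in B6, 949.8, 1072 and 969 in KS and 4.24, 4.29 and 4.17 in SJL.

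The shared genes with the largest gains ran the other way. Tmem242 was at 9.78, 9.63 and 12.1 in B6, 216, 234 and 257 in KS and 409, 489 and 452 in SJL. E4f1, which encodes a ubiquitin ligase and transcription factor, was at 18.1, 17.4 and 15.9 in B6, 348, 443 and 371 in KS and 396, 573 and 521 in SJL, and Plbd1 at 113, 95.2 and 68.3, 1376, 1266 and 1133 and 1041, 1506 and 1473. SJL was above KS in Tmem242 (0.90, adjusted p = 0.000662 by limma), and the strains were not called apart in E4f1 and Plbd1. A further probe set of Tmem242 gave -0.67 between SJL and B6 and was not called, and the mean of its probe sets gave 1.27. Hddc3 was at 156, 169 and 155, 229, 249 and 258 and 2465, 2249 and 2182, mainly raised in SJL. Fst, which encodes follistatin, an antagonist of activin, was lower in both, at 565, 998 and 661 in B6, 144, 63.98 and 69.98 in KS and 26.9, 27.2 and 53.1 in SJL (-4.04 ± 0.34, adjusted p = 9.69e-05). Atf3, a stress-induced transcription factor gene, was at 60.6, 89.1 and 21.5 in B6 and 6.78, 6.36 and 6.78 in SJL. It was the 1 called member of 20 immediate early and heat shock genes (5%, against 16.0% of all genes).

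Shared genes lay unevenly along the chromosomes, as placed by RefSeq annotation on GRCm38.p6. Chromosome 17 held 40 of 527 tested genes in this group (7.59%), chromosome 6 held 26 of 527 (4.93%), and chromosome 18 held 1 of 287 (0.348%). The share over all genes tested was 3.21%. On chromosome 4, 17 shared genes were higher and 2 lower. Outside the interferon list, 51 of 320 shared genes (15.9%) had another shared gene as the adjacent tested gene, against 5.3% of the remaining genes. Clustered gene families remain in this count, as a run on chromosome 11 held Slfn8, Slfn2, Slfn4 and Slfn3, all lower. The longest run, on chromosome 6, held 11 shared genes among 18 tested neighbours, 5 higher and 6 lower, with Pbp2 and Plbd1 among them. For private genes 26.2% had an adjacent private gene, against 13.4% of the rest. The X chromosome held few private genes, 6 of 322 (1.86%, against 7.65% of all genes tested).

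Among the private genes with the largest drops, Krt15, a basal keratin that also marks limbal stem cells, was at 13641, 11197 and 9813 in B6, 7043, 7841 and 9353 in KS and 251, 73.5 and 11.2 in SJL (-7.21 ± 0.74, adjusted p = 0.000293). The SJL arrays were all far below the others and differed widely among themselves. Piezo2, a mechanically gated ion channel, was at 5300.3, 5544 and 4902 in B6, 7078, 6807 and 6744 in KS and 19.5, 21.2 and 95.1 in SJL. Lgals7, which encodes galectin-7 of stratified epithelia, was at 567, 919 and 563 in B6, 642, 648 and 874 in KS and 6.01, 7.81 and 7.75 in SJL. None of these 3 genes had a further tested probe set. Pdlim2, which encodes an actin-associated ubiquitin ligase, was at 900.2, 955 and 1018 in B6 and 5.09, 14.99 and 6.97 in SJL, and B3galt6, an enzyme gene of the linker that joins glycosaminoglycans to core proteins, at 954, 1039 and 1162 in B6, 868, 909.5 and 861 in KS and 15.1, 9.19 and 9.75 in SJL. A further probe set of B3galt6 gave -1.75, and the mean of its probe sets -2.50. Trim12c was lower by -6.32 on its brightest probe set and by -0.38 on another.

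Among the private genes with the largest gains, Nxpe4 was at 3252, 3098 and 3574 in SJL, against 13.2, 6.98 and 27.4 in B6 and 15.1, 7.13 and 6.86 in KS. Ceacam10, a member of the carcinoembryonic antigen family of cell adhesion genes, was at 1933, 2765 and 2235 in SJL, 8.89, 5.88 and 15.2 in B6 and 4.57, 4.78 and 4.74 in KS. Ccl28, a chemokine of mucosal epithelia, was at 1284, 1814 and 1088 in SJL, 4.88, 4.85 and 4.84 in B6 and 4.86, 4.77 and 4.81 in KS. In these 3 genes every B6 and KS array lay far below the SJL arrays. SJL and B6 arrays did not overlap in 837 of the 838 private genes, so this separation adds no support. The filter on dim probe sets acted on the mean over all 9 arrays, which the SJL arrays raised in these genes. Further probe sets of Ceacam10 and Ccl28 gave 5.07 and 2.41. Csn3, which encodes the milk protein kappa-casein, was at 427, 570.4 and 342 in SJL and 7.60, 12.7 and 5.55 in B6. Ctnnd2, a catenin gene, was at 845, 989.6 and 813 in SJL and 10.7, 49.9 and 19.2 in B6, and Tmem87a at 6648, 5588 and 6307 and 137, 198 and 89.97. Of the 397 private higher genes, 57 had means under 16 in both B6 and KS, and of the 441 private lower genes, 53 had an SJL mean under 16.

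In the 48 genes on opposite sides of B6, 21 were higher in SJL and lower in KS, and 27 were lower in SJL and higher in KS. Apoc1, an apolipoprotein gene, was at 492, 821 and 723 in B6, 1360.5, 1176 and 1440.2 in KS and 5.31, 8.34 and 8.21 in SJL. Otx1, a homeobox gene, was at 958, 894 and 1096 in B6, 2859, 2914 and 2689 in KS and 66.9, 82.6 and 91.98 in SJL. Tmem45b, which encodes a membrane protein, was at 57.00, 31.2 and 41.1 in B6, 19.5, 18.9 and 11.04 in KS and 1695, 1295 and 1545 in SJL. Klk8, a kallikrein protease of epidermis, was at 56.03, 53.3 and 60.7 in B6, 25.3, 13.6 and 15.5 in KS and 119, 289 and 232 in SJL. In all 4 genes the B6 arrays lay between those of the other strains, which the rule for this group largely sets.

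**Figure D3:**
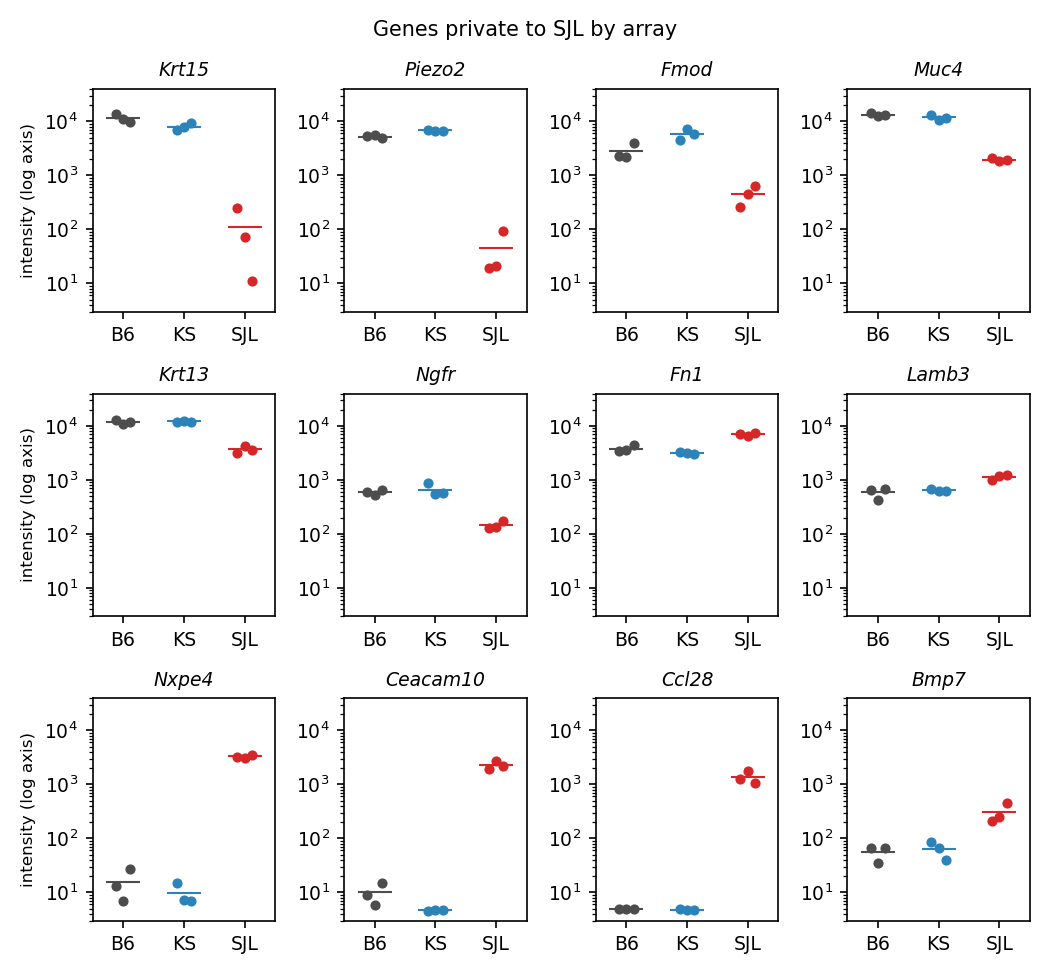
Intensity on a log axis by array for 12 genes private to SJL, with 3 arrays per strain as points and their mean as a bar. Krt15, Piezo2, Fmod, Muc4, Krt13 and Ngfr are lower and the other 6 higher in SJL, and the SJL arrays overlap neither the B6 nor the KS arrays in any of the 12. SJL and B6 arrays do not overlap in 837 of the 838 private genes.

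Of the epithelial genes, most were not called. The corneal epithelium list had 1 of 23 higher and 1 lower in SJL, and its median was -0.03. Pax6, the master transcription factor gene of the eye, differed by 0.00 (-0.20 to 0.21), and Aldh3a1, the abundant corneal aldehyde dehydrogenase, by -0.04 (-0.21 to 0.12). Muc4, a membrane-bound mucin, was lower and private, at 14246, 12442 and 13193 in B6, 13420.1, 10713 and 11617 in KS and 2120.2, 1848 and 1899.8 in SJL (-2.76 ± 0.11, adjusted p = 1.25e-06), while its other probe set, the only plain one, gave -0.34 and was not called (adjusted p = 0.239). Krt14, a basal keratin, was at 6584, 7572 and 7062 in SJL and 5703, 5732 and 4958 in B6 (0.37), but its further probe sets gave -0.41 and 0.54, and the call ended without any B6 replicate or any KS replicate or SJL replicate 2 or 3 (adjusted p = 0.0527 to 0.12).

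Among 15 tested markers of conjunctiva and limbus, tissues that border the cornea, 4 were higher and 5 lower (60% called, against 16.0% of all genes). Krt13, a mucosal keratin, was lower, at 13091, 11014 and 11999.8 in B6, 11901, 12531 and 11929 in KS and 3216, 4307 and 3605 in SJL (-1.70, private), as was Krt15. Krt4, its mucosal partner, was shared, at 154, 56.8 and 112 in B6, 11.9, 6.90 and 38.1 in KS and 4.09, 4.08 and 4.10 in SJL. Gpha2, a glycoprotein hormone subunit of limbal stem cells, was at 534, 713 and 422 in B6 and 158, 247 and 112 in SJL, and Ifitm3, which is also interferon-induced, at 9371, 6442 and 6111 and 2864, 2686 and 2334. Cxcl14, an epithelial chemokine, was higher, at 230.3, 531 and 330.4 in SJL and 26.7, 45.9 and 22.1 in B6 (3.13), as were the simple epithelial keratin genes Krt18 (0.84, shared) and Krt19 (0.67), the latter not called without B6 replicate 3 or SJL replicate 2 (adjusted p = 0.0546 to 0.0615). The list's median difference was 0.49, and its log2 mean was 6.93 to 7.16 on the B6 arrays and 6.56 to 6.97 on the SJL arrays, which overlap. Summed intensity, in which bright genes such as Krt15 weigh most, was 36639 to 46037 on the B6 arrays, 33212 to 37574 on the KS arrays and 16334 to 19854 on the SJL arrays. The goblet cell gene Muc5ac lay at 4.31, 4.25 and 4.25 in B6 and 4.28, 4.27 and 4.29 in SJL. The part that tissue from the edge of the punch plays in these values was not tested.

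Surface and junction genes differed one by one. Of 19 keratinization and barrier genes 2 were higher and 2 lower (21.1% called, against 16.0% of all genes). Krt1, a keratin of cornifying epithelium, was at 79.6, 76.3 and 73.3 in SJL and 39.6, 34.5 and 44.7 in B6 (0.81, private). Sbsn, suprabasin, was lower (-0.84), a call that ended without B6 replicate 2 or 3 or any KS replicate or SJL replicate 1 or 3 (adjusted p = 0.0756 to 0.165). Of 32 junction genes 2 were higher and 3 lower (15.6% called, near the share of all genes). Cldn4, a claudin of tight junctions, was at 2562, 2699 and 1962 in SJL, 889.6, 1417 and 629 in B6 and 908, 1002 and 1228 in KS (1.36 ± 0.27, adjusted p = 0.0111). Ocln, the tight junction protein occludin, was lower by -0.63 and Pkp2, a desmosome plaque gene, by -1.25, and these calls ended without B6 replicate 2 or SJL replicate 2 or 3 (adjusted p = 0.0551 to 0.0771) for Ocln and without B6 replicate 1 or 3 or SJL replicate 1 or 3 (adjusted p = 0.0645 to 0.0885) for Pkp2.

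Of 17 basement membrane and hemidesmosome genes limma called 3 (17.6%, against 16.0% of all genes), which is near the background. All 3 were higher in SJL and private. Lama3 and Lamb3 encode chains of laminin 332, which ties the basal epithelium to its membrane, and Itgb4 encodes the hemidesmosome integrin that binds it. Lama3 was at 4750.3, 3929 and 3849 in SJL, 2708, 2169 and 2711 in B6 and 2479, 2273 and 2537 in KS (0.72 ± 0.12, adjusted p = 0.00516). Lamb3 was at 991, 1204 and 1261 in SJL and 651, 435 and 686 in B6 (0.97), and Itgb4 at 1666, 2195 and 2092 and 1252, 910.5 and 1157 (0.84). The 3 calls held in every fit without 1 array, and the list's median was 0.10. Plain probe sets are those with no extra letter before the ending of their name. Restricted to these, 1 member was called, and the brightest probe sets of Lama3, Lamb3 and Itgb4 all carry the letter a.

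The main collagen and proteoglycan genes of the stroma were not called, and single other matrix genes were. Col1a1, the main fibrillar collagen, was at 8706, 8976 and 11945 in B6 and 8170.1, 8111 and 10794 in SJL (-0.13, interval -0.53 to 0.27), and Col5a1, which limits fibril diameter, differed by -0.38 (-1.01 to 0.25). Lum, the lumican gene, differed by 0.10 (-0.10 to 0.29) and Dcn, the decorin gene, by -0.15 (-0.33 to 0.04). Of 24 collagens 1 was higher and 2 lower (12.5% called, against 16.0% of all genes). The higher one, Col23a1, a transmembrane collagen, was shared, at 46.6, 42.5 and 65.1 in B6, 78.6, 139 and 119.5 in KS and 118, 146 and 99.7 in SJL (1.10). Col27a1, a fibrillar collagen of cartilage, was lower and private near the lower end of the scale, at 13.2, 13.4 and 15.8 in B6 and 5.83, 6.44 and 7.05 in SJL. The call of Col11a1, at 29.5, 12.2 and 53.4 in B6 and 7.42, 6.71 and 5.92 in SJL, ended without B6 replicate 1 or any KS replicate or any SJL replicate (adjusted p = 0.0557 to 0.098). None of 19 collagen processing and crosslinking genes was called by limma and 3 had an unadjusted p under 0.05, with P4hb, a subunit of prolyl hydroxylase, at -0.12 (-0.29 to 0.06) and Tgm2, a transglutaminase, at -0.04 (-0.22 to 0.15).

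Fmod was the exception among the proteoglycans. It encodes fibromodulin, a small leucine-rich proteoglycan that binds collagen fibrils, and was at 2311, 2193 and 3927 in B6, 4451, 7399 and 5871 in KS and 261, 459.8 and 627 in SJL (-2.65 ± 0.35, adjusted p = 0.00125). The SJL arrays lay below all B6 and KS arrays, and KS tended to the other side of B6 without being called (1.09, adjusted p = 0.13). All 5 further probe sets of Fmod were lower in SJL, by -1.77 to -3.75. Of 22 proteoglycan and keratan sulfate genes 1 was higher and 2 lower in all (13.6% called, against 16.0% of all genes), and the list's median was -0.11. The higher one was Sdc2, a cell-surface heparan sulfate proteoglycan shared with KS (0.43 in SJL, 0.52 in KS), whose call ended without B6 replicate 2 or SJL replicate 1 (adjusted p = 0.0544 to 0.0714). Cd44, the hyaluronan receptor, was lower by -0.51, a call that ended without B6 replicate 1 or 2 or any KS replicate or SJL replicate 2 or 3 (adjusted p = 0.0563 to 0.111).

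Remodelling and matricellular genes split evenly, with 4 of 22 higher, 4 lower (36.4% called, against 16.0% of all genes) and a median of 0.00. Fn1, the fibronectin gene, was higher and private, at 7221, 6418 and 7516 in SJL, 3377, 3537 and 4473 in B6 and 3367, 3194 and 3013 in KS (0.90 ± 0.12, adjusted p = 0.00158), and its further probe set gave 1.73. Fbln1, a fibulin of elastic fibres and basement membranes, was higher and shared, at 248, 208 and 275 in B6, 499, 478 and 498 in KS and 361, 431 and 456 in SJL, while its further probe set gave 0.20 and was not called. Postn, the periostin gene, was also shared (0.86 in SJL, 0.998 in KS), and its SJL call ended without B6 replicate 1 or 2 or SJL replicate 2 or 3 (adjusted p = 0.0638 to 0.0916). Plat, the tissue plasminogen activator gene, was higher in SJL and lower in KS, at 984, 1214 and 850.3 in SJL, 327, 350.4 and 559 in B6 and 196, 188 and 203 in KS. On the lower side, Ccn1, a matricellular gene, was at 5983, 6235 and 6052 in B6 and 4431, 3417 and 3751 in SJL (-0.66), with all 3 further probe sets between -1.07 and -1.24. The thrombospondin gene Thbs1 (-0.93), its relative Thbs2 (-0.61) and the metalloproteinase inhibitor gene Timp3 (-0.63) were lower too. Those 3 calls ended for Thbs1 without B6 replicate 1 or 2 or KS replicate 1 or SJL replicate 3 (adjusted p = 0.0509 to 0.0958), for Thbs2 without any B6 replicate or KS replicate 3 or SJL replicate 3 (adjusted p = 0.054 to 0.0926) and for Timp3 without any B6 replicate or SJL replicate 2 or 3 (adjusted p = 0.0626 to 0.103).

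**Figure D4:**
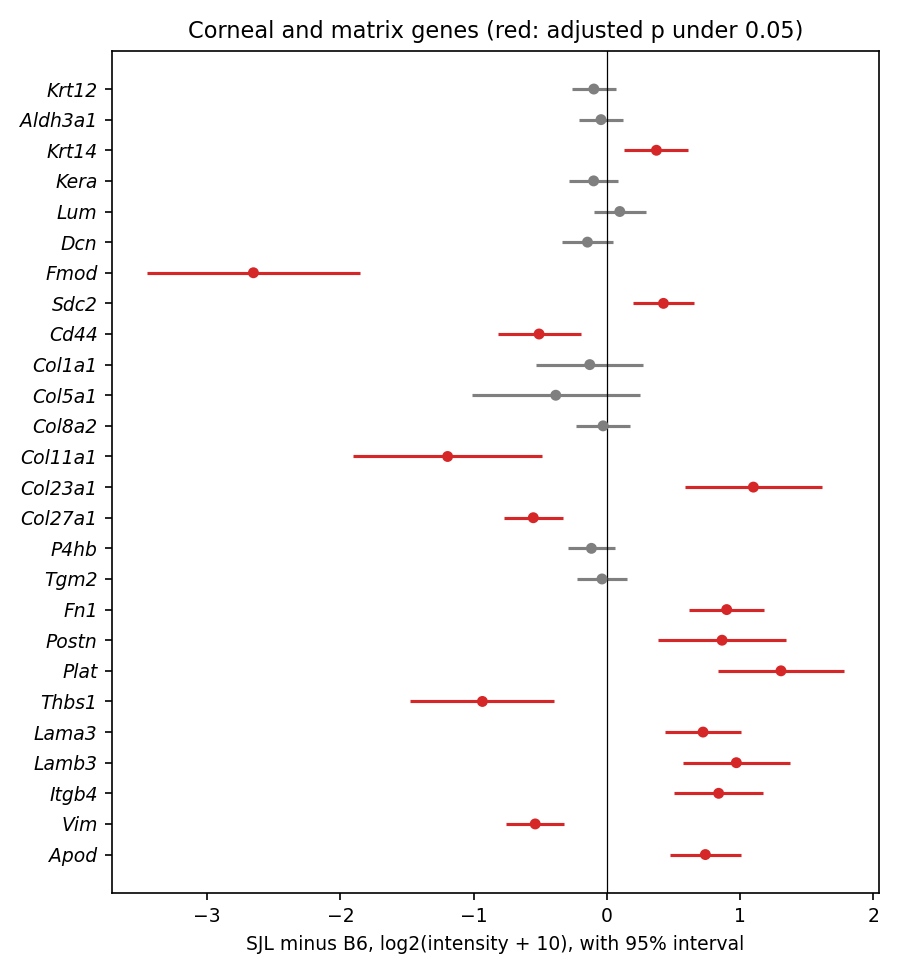
SJL minus B6 differences in log2(intensity + 10) with their 95% intervals for 26 corneal and matrix genes, n = 3 arrays per strain. Red genes have an adjusted p under 0.05, and the intervals of Krt12, Aldh3a1, Kera, Lum, Dcn, Col1a1, Col5a1, Col8a2, P4hb and Tgm2 include 0.

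The keratocyte list had 1 higher and 5 lower members of 21, against 8.38% and 7.63% of all genes, with a median of -0.12. The lower ones numbered 2 without B6 replicate 3 or SJL replicate 3 and 3 without any of the other 7 arrays. Aldh1a1, a crystallin-like enzyme of keratocytes, was at 8221, 8844 and 8016 in B6 and 5668, 6426 and 5765 in SJL (-0.49, private), and Vim, the intermediate filament gene vimentin, at 7022, 6842 and 7879 and 4698, 5255 and 5008 (-0.54), with both further probe sets of Vim also lower. The calls of Pdgfrb (-0.67), a growth factor receptor, Cyp1b1 (-0.67) and Mme (-0.51) ended for Pdgfrb without any B6 replicate or any KS replicate or SJL replicate 1 or 3 (adjusted p = 0.0502 to 0.123), for Cyp1b1 without any KS replicate or any SJL replicate (adjusted p = 0.0531 to 0.0827) and for Mme without B6 replicate 3 or SJL replicate 2 or 3 (adjusted p = 0.0591 to 0.103). In the fits without a B6 replicate Cyp1b1 fell below the filter and was not tested, so its call held in none of the 6 fits that tested it. Its means were 14.6 in B6 and 5.09 in SJL, near the lower end of the scale. Apod, a lipid carrier gene, was higher by 0.74 on its brightest probe set and lower by -4.76 on the other, and averaging them gave -2.01. Of 13 endothelial genes 1 was higher and 2 lower, counts too small to read against the background. The list's median against B6 was -0.17 in SJL and 0.20 in KS. Against KS, SJL was called lower in 5 of these genes and higher in 0. Atp1b1, a subunit of the sodium pump, was at 4713, 4060.5 and 5611 in B6, 5981, 5777 and 5118 in KS and 2941, 2810.3 and 2253 in SJL (-0.84), and its 3 further probe sets ranged from -0.75 to -0.998. Slc16a1, a lactate transporter, was at 669, 544 and 489 in B6, 659.9, 669.9 and 694 in KS and 258, 255 and 244 in SJL (-1.13). Both were private. Cd200 was higher by 0.92, a call that ended without B6 replicate 1 or 2 or SJL replicate 1 (adjusted p = 0.0538 to 0.0747).

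Signalling genes were mostly not called, with single large differences. In the TGF-beta and BMP list, SJL was higher for 2 of 31 members and lower for 3 (16.1% called, against 16.0% of all genes). Bmp7, a bone morphogenetic protein ligand, was at 214, 254 and 446 in SJL, 66.6, 34.6 and 66.5 in B6 and 86.6, 66.3 and 39.8 in KS (2.23 ± 0.35, adjusted p = 0.00292), and its further probe set gave 2.87. The ligand gene Tgfb1 was at 80.8, 148 and 110.4 in SJL and 51.9, 54.2 and 53.03 in B6 (0.93), and Acvr1, a BMP receptor, was lower by -0.78, with a further probe set at -0.29 that was not called. The decoy receptor gene Bambi was lower by -1.59, a call that ended without B6 replicate 1 or 3 or any KS replicate or any SJL replicate (adjusted p = 0.0596 to 0.109). Of 32 Wnt genes 1 was higher and 3 lower (12.5% called), and all 4 calls held without any 1 array. The ligand gene Wnt2 was at 99.3, 82.4 and 88.1 in B6 and 39.5, 36.5 and 44.2 in SJL (-0.997), Wnt5a differed by -0.55 with 3 further probe sets between -0.03 and -0.11, and the receptor gene Fzd2 differed by -1.02 with a further probe set at 0.00. Dkk3, a Dickkopf family member, was higher, at 9072, 9284 and 10119.8 in SJL and 5914, 6333 and 7039 in B6 (0.56).

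Of 36 redox and detoxification genes 11 were called (30.6%, against 16.0% of all genes), 2 higher and 9 lower, while the list's median was only -0.04. Of the 11, 4 were shared and 6 private. The lower ones numbered 4 without SJL replicate 3 and 6 to 8 without any other array. Aldh2, the mitochondrial aldehyde dehydrogenase, was higher and shared, at 2865, 3043 and 2543 in B6, 3981, 4751 and 4552 in KS and 5135, 5068 and 5429 in SJL. Nnt, a mitochondrial transhydrogenase, was higher by 0.52, a call that ended without B6 replicate 1 or 2 or KS replicate 1 or SJL replicate 2 or 3 (adjusted p = 0.0561 to 0.097). Cbr2, a carbonyl reductase, was lower and private, at 6762, 5911 and 6642 in B6, 6524, 6563 and 6091 in KS and 2181, 3403 and 3176 in SJL (-1.16). The glutathione transferase gene Gstm2 was at 1890.0, 1984 and 1408 in B6 and 1053, 1086 and 1088 in SJL (-0.69). Adh6a, an alcohol dehydrogenase, was shared by the rule, but its differences were -0.47 in SJL and -5.52 in KS. Of the 11 calls 7 ended in some fit without 1 array, that of Adh6a without SJL replicate 3 (adjusted p = 0.0515) among them.

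Of 42 cell cycle genes 10 were lower in SJL (23.8%, against 7.63% of all genes), 0 higher and 0 shared with KS, and by limma 22 had an unadjusted p under 0.05. The list's median was -0.75 in SJL and -0.22 in KS against the same B6 arrays. Kif11, a mitotic motor, was at 199.8, 319.7 and 424 in B6, 231, 219 and 293 in KS and 30.8, 135 and 84.6 in SJL (-1.91), and Cenpf, a centromere protein gene, at 222, 318 and 472, 318, 239 and 280.3 and 71.9, 126 and 125 (-1.54). Cdkn1b, which encodes an inhibitor of the cell cycle, was lower as well, at 9081, 9587 and 10294 in B6 and 6213, 4403 and 5044 in SJL. Further probe sets of Cenpf and Cdkn1b gave -0.58 and -0.34 and were not called. The log2 list mean was 9.46, 9.54 and 9.84 on the B6 arrays, 9.37, 9.24 and 9.30 on the KS arrays and 8.40, 9.38 and 8.94 on the SJL arrays. All KS arrays lay below the B6 arrays, and SJL replicate 2 lay above every KS array. SJL replicate 2, the highest SJL array for this list, and B6 replicate 3, the highest B6 array, were also the ones with the highest Gapdh 3' to 5' difference in their strains. The lower members numbered 24 without SJL replicate 2, 6 without B6 replicate 2 or 3 and 16 without both B6 replicate 3 and SJL replicate 2, and the part of RNA quality in this was not tested. The call of Kif11 ended without B6 replicate 2 or 3 (adjusted p = 0.06 to 0.0672).

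Mouse counterparts of genes tied to human corneal thickness or to keratoconus, a disease of corneal thinning, were called at about the background rate, 8 of 47 (17%, against 16.0% of all genes). Of these 5 were higher and 3 lower, with a list median of -0.03. Stk35, a kinase gene, was higher and private, at 6269, 5753 and 5185 in SJL, 1255, 969 and 1441 in B6 and 936, 919 and 1166 in KS (2.24 ± 0.16, adjusted p = 4.3e-05), and its further probe set gave 0.98 and was not called. Arhgap20, a GTPase-activating protein gene, was higher and shared, at 26.95, 24.3 and 24.5 in B6, 106, 94.2 and 108 in KS and 119, 94.2 and 84.4 in SJL (1.62). Mpdz, a scaffold protein gene, was lower, at 698, 464 and 754 in B6 and 354, 261 and 336 in SJL (-0.97), and Ibtk was lower by -0.80 with a further probe set at 0.01. Dock9 was higher by 0.58, a call that ended without SJL replicate 3 (adjusted p = 0.0699). Lrrk1 was higher by 0.51 on its brightest probe set and -0.40 on its plain one, and its call ended without B6 replicate 1 or 2 or KS replicate 1 or SJL replicate 1 or 3 (adjusted p = 0.0501 to 0.101). None of 11 genes of brittle cornea and stromal dystrophies was called by limma, nor had an unadjusted p under 0.05, with Tgfbi, an abundant matrix gene of the epithelium, at 0.04 (-0.14 to 0.23).

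The remaining lists were small or held few calls. Among 15 genes of the angiogenic balance, which keeps the cornea free of vessels, 4 were called (26.7%, against 16.0% of all genes), all lower, Thbs1, Thbs2, Timp3 and the receptor gene Kdr (-1.07), and the call of Kdr ended without SJL replicate 3 (adjusted p = 0.0628). None of these 4 calls held in every fit without 1 array. The lower members numbered 1 without B6 replicate 1 or 2, 2 without B6 replicate 3 and 0 by limma without SJL replicate 3, where 4 had an unadjusted p under 0.05. Of 8 mechanosensitive and TRP channels 3 were called (37.5%). Piezo2 was lower and 2 were higher, Tmem63b (0.76) and Trpm4 (0.68), the latter not called without B6 replicate 1 or 2 or SJL replicate 2 or 3 (adjusted p = 0.0541 to 0.0938). Ngfr, a neurotrophin receptor, was the 1 called of 7 nerve and Schwann cell markers, at 604, 533 and 646 in B6, 869.7, 540.0 and 566 in KS and 128, 134 and 173 in SJL (-1.97). Npas2 was the 1 called of 16 clock genes, at 353, 643 and 370.0 in B6, 299, 274 and 762 in KS and 45.3, 62.9 and 16.8 in SJL (-3.23). Of 31 oxidative phosphorylation genes 1 was higher, Sdhb (0.47), and of 18 ribosomal protein genes 1 was lower, Rpl14 (-0.37), a call that ended without any B6 replicate or any KS replicate or SJL replicate 2 or 3 (adjusted p = 0.0715 to 0.135). Best1 was lower among 5 pigment cell and iris markers (-1.01), and Bfsp1 higher among 3 lens markers (1.199), a call that ended without any B6 replicate or SJL replicate 2 or 3 (adjusted p = 0.051 to 0.0827). None of 11 retina markers and 2 muscle markers was called by limma, with 1 and 0 at an unadjusted p under 0.05. For retina this says little, as 19 of 21 markers on the array lay under 16 on every B6 and SJL array. KS replicate 3, where 6 did, entered both the filter and the shared spread. Guca1b was at 102, 110 and 132 in B6, 56.5, 42.8 and 37.5 in SJL and 451 on KS replicate 3, and was called in 2 other settings. Of 6 genes with known strain alleles Nnt alone was called.

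**Figure D5:**
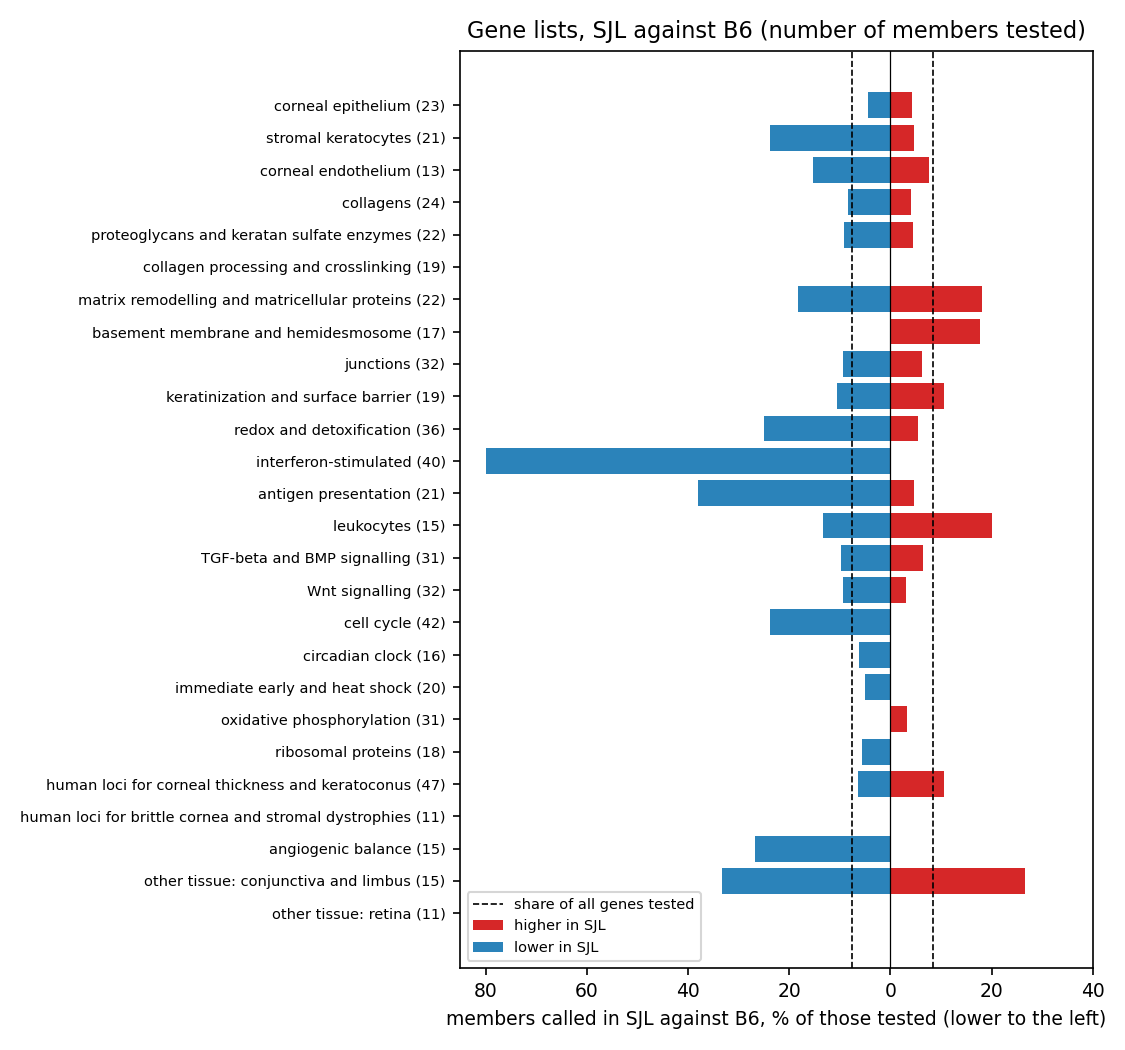
For each gene list with 10 or more tested members, the share of members higher in SJL (right) and lower in SJL (left) than in B6, in percent of those tested, with the number tested in brackets. Dashed lines mark the shares of all genes, 8.38% higher and 7.63% lower, and the interferon-stimulated list stands at 32 of 40 lower.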

How the data were processed

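RNA from central corneal punches of 3 mice per strain was labelled with biotin and hybridised to Affymetrix arrays, per the labels' protocols. The authors deposited 1 linear intensity per probe set and array, and their method of summary and scaling is not stated in the sources used here. The upper quartiles of the 9 deposited intensity columns lay between 380.4 and 397.6. Arrays have no read depth, so 3 arrays per strain set the precision.

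Log2(intensity + 10) was taken for the 45101 probe sets, 64 controls and those with a mean below the median were left out, and 22519 were tested. One mean per strain was fitted to all 9 arrays with limma 3.58.1 in R 4.3.3 (6 residual degrees of freedom, 8.41 after moderation). Tests were two-sided with Benjamini-Hochberg adjustment over all probe sets tested. The method was tested on simulated data. Permuting 3 arrays against 3 cannot give a p below 0.1, so only the limma model was used. Nothing beyond separate mice is stated of the replicates.

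Gene symbols came from GEO's platform annotation, where 34945 probe sets had 1 symbol, 932 several and 9160 none. Chromosomes and promoters came from RefSeq (GRCm38.p6). The strains, gene lists, class rules and naming rule were chosen with earlier results of these data known. The rule named the 8 highest and 8 lowest genes among those called whose SJL arrays all lay above or all below the B6 arrays. It also named the 5 highest and 5 lowest shared and private genes and up to 2 called members of each list (4 for matrix lists and human loci). It further took 10 corneal genes, and other genes were picked with their values in view. Alternatives covered filters, pseudocounts, normalization, probe set choice, a fold threshold, an intensity trend, a replicate block and leaving out arrays. Same-numbered B6 and SJL arrays deviated together in 1 of 3 pairs only (correlations 0.263, -0.266 and -0.2). For same-numbered B6 and KS arrays the correlations were 0.216, 0.162 and 0.0612, and B6 replicate 3 with SJL replicate 2 gave 0.423. Deviations from a mean of 3 arrays are tied to each other, so these values cannot settle whether the numbers pair the arrays.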

Additional observations from a re-analysis of the deposited data

Results flagged for a closer look

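In 48 genes SJL and KS were both called against B6 by limma and in opposite directions. The direct contrast of SJL with KS was called in all 48, which follows from the opposite directions and adds no support. The gap of SJL minus KS was 5.85 for Tmem45b and 4.03 for Fggy, a gene of sugar kinase type that was at 118, 120.2 and 138 in B6, 6.86, 6.94 and 6.76 in KS and 251, 239 and 308 in SJL. It was -6.27 for Apoc1 and -4.98 for Otx1. The differences from B6 of both strains use the same 3 B6 arrays.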

How the results depend on the processing

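Of the 76 called genes named by the rule, 47 kept their call and direction in every setting that tested them and 29 lost it in at least 1. Without 1 array, genes called numbered 1219 to 1802, higher 606 to 980, lower 613 to 878, shared 224 to 359, private 612 to 940, lower cell cycle genes 6 to 24, lower interferon-stimulated genes 30 to 34 and higher basement membrane genes 3 to 4. Against a fold of 1.2, 862 were called, 403 higher and 459 lower, with 173 shared and 444 private. The 70th percentile filter left 228 shared. With only the 6 arrays of SJL and B6, 589 were higher and 6 cell cycle genes lower, and that fit cannot sort genes by KS. The cell cycle list had 4 lower members with no filter on dim probe sets and 16 without both B6 replicate 3 and SJL replicate 2, an alternative chosen after seeing the data. Plain probe sets gave 1 higher basement membrane gene and -0.40 for Lrrk1. The mean of all probe sets gave -2.01 for Apod and 0.059 for H2-D1. Where no cause is shown by fewer arrays or genes tested, the cause was not tested. With the replicate block, 1723 genes were called, 911 higher and 812 lower, with 311 shared and 828 private. With 3 arrays per strain, the spread between mice and the many intensities near the lower end of the scale limit small differences and dim genes.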
